A study of Homo sapiens with 2 samples.

Results

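The 7 genes described here encode the ROBO receptors ROBO1, ROBO2, ROBO3 and ROBO4 and their secreted ligands SLIT1, SLIT2 and SLIT3. They were picked by gene name out of 62704 genes in the unfiltered count matrices of 2 split-seq libraries, 1 of single cells and 1 of single nuclei, in which RNA is barcoded inside fixed cells over successive rounds of wells. Both came from cerebral organoids grown from H9, a human embryonic stem (hES) cell line, so all values come from a single line. The cells library pooled control organoids (CO) of days 45, 55 and 70, organoids dissociated at day 45 and reaggregated (DISS) of days 48, 55 and 70, and organoids taken out of Matrigel at day 13 and held in 3% low-gelling agarose (CONS) of day 55. The nuclei library came from day 45, prepared from intact organoids or from suspensions of single cells, and its treatment label names control, dissociated and embedded material. Mostly 3 batches of 2 organoids each were combined. The deposited files give all barcodes a single sample name, and none could be tied to a treatment, day or organoid. The question addressed is therefore where ligands and receptors were expressed, by type of cell, and not how a treatment changed them.

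SLITs are large secreted proteins that bind the extracellular part of ROBO receptors, and the best known result of that binding is repulsion of growing axons and of migrating neurons. ROBO1 and ROBO2 act in cortical progenitors and in the axons of cortical neurons, and ROBO3 is a divergent receptor that lets commissural axons cross the midline and binds the ligand NELL2. ROBO4 is a receptor of endothelial cells. The choroid plexus, which makes the cerebrospinal fluid, is a known source of SLIT2. The cortical hem beside it is a signalling centre at the dorsal edge of the cortex.

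SLIT2 and SLIT3 each carry a copy of the same microRNA inside an intron, and some of the receptors hold matches to it, so these sequences are shown. hsa-miR-218-5p lies in intron 15 of SLIT2 (GRCh38, chr4:20528299-20528319, plus strand) and in intron 14 of SLIT3 (chr5:168768211-168768231, minus strand), and SLIT3 also holds hsa-miR-585-3p in intron 1 (chr5:169263616-169263634, minus strand). Capitals mark the seed, bases 2 to 8, in these RefSeq sequences.
hsa-miR-218-5p: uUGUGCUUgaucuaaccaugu
hsa-miR-585-3p: uGGGCGUAucuguaugcua
The letters that pair with the miR-218-5p seed, AAGCACA, were searched on the transcript strand in the 3′ untranslated region of the representative transcript of each member (GENCODE v44). ROBO1 holds 1 match, at base 971 of 1674, and SLIT3 holds 1, at base 2796 of 4714. ROBO2 and SLIT2 hold 2 matches each, the first at base 456 of 3909 and at base 299 of 1552. ROBO3, ROBO4 and SLIT1 hold none, and 14.2% of 18780 transcripts hold at least 1. The first match of each member is given with the capitals on the matched letters.
ROBO1: ttttttggttttaaAAGCACAa
ROBO2: ttttatttggtgatAAGCACAa
SLIT2: ctgaagacaagcagAAGCACAt
SLIT3: ggcaagagtatgggAAGCACAc
A match is a description of the letters only. The mature microRNAs themselves were not measured.

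The promoters of the 3 ligands and of ROBO3 are shown because SLIT2 and SLIT3 shared the types in which they were highest while SLIT1 did not, and because ROBO3 was highest in a small cluster in each library. Each covers 250 bases before to 50 after the start of transcription (RefSeq, GRCh38.p14). Capitals mark matches, on either strand, to 5 motifs: CAGATG, an E-box of the NEUROD and NEUROG factors, TAATCC of OTX factors, TAATTA of homeodomain factors, CTTTGA of TCF and LEF factors, and the CAAT box CCAAT.
SLIT1 (chr10:97185910-97186209, minus strand): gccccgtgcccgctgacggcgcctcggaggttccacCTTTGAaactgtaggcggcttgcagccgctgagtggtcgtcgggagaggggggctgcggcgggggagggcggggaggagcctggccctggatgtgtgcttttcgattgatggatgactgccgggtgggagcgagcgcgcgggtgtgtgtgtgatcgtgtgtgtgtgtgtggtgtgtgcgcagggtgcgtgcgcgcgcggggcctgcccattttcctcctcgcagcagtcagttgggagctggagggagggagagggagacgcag
SLIT2 (chr4:20251655-20251954, plus strand): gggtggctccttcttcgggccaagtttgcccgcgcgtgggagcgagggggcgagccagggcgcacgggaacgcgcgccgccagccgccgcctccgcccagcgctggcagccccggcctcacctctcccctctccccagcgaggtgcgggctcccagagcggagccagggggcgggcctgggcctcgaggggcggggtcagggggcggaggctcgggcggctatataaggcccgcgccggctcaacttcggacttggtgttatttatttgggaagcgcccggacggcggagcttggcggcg
SLIT3 (chr5:169301090-169301389, minus strand): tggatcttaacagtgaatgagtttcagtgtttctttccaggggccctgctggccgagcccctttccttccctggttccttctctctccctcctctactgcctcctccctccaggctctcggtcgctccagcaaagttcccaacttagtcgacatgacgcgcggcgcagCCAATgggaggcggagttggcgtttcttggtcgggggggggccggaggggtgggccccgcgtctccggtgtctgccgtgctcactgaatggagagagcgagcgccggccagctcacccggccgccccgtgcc
ROBO3 (the start at chr11:124865182-124865481, plus strand): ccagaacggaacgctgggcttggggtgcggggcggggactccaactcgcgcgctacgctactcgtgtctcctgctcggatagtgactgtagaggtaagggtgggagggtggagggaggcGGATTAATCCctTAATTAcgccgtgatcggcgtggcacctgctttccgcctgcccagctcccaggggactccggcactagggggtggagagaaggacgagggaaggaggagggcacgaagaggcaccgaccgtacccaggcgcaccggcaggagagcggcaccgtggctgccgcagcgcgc
SLIT1 held a single match, to CTTTGA at -214 from the start, and SLIT3 a single match, to CCAAT at -82. SLIT2 held none. The ROBO3 window, 1 of 3 listed for that gene, held 2 overlapping matches to TAATCC at -131 and -127, followed by TAATTA at -119. Of the other ROBO3 windows, 1 held no match and 1 a single match, to CTTTGA at -50. Among 35116 promoters of this length, 14.7% held CAGATG, 6.36% TAATCC, 4.84% TAATTA, 12.9% CTTTGA and 34.6% CCAAT, so these are common words. No factor binding was measured here.

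Barcodes were kept where they held over 500 genes, over 1000 transcripts and no more than 20% of transcripts from mitochondrial genes, which left 20178 of 1303455 barcodes in the cells library and 14228 of 197446 in nuclei. Median depth was 2615 and 3890 transcripts. Clusters were named from marker genes, with the 7 members left out of the clustering, and a name ends in "-like" because it rests on markers alone. Names were given to 8389 cells in 9 of 22 clusters and to 12351 nuclei in 16 of 19. The cells left unnamed, 58.4%, had a median of 1743 transcripts against 6046 in named clusters, and unnamed nuclei were 13.2%. Each type below held, in cells and in nuclei, 1921 and 3474 radial glia-like, 2011 and 2192 dividing progenitor-like, 794 and 1538 intermediate progenitor-like, and 1883 and 3077 excitatory neuron-like barcodes. Smaller were the Cajal-Retzius-like (199 and 625), cortical hem-like (1087 and 1038) and choroid plexus-like (494 and 407) types. The choroid plexus-like clusters were led by cilium genes and held 7 and 6 of 7 markers. The cortical hem-like cluster of cells held all 7 markers of the hem list and all 7 of the choroid plexus list. The larger cortical hem-like cluster of nuclei, of 804, held 4 hem and 6 choroid plexus markers. Both were named for the hem because RSPO1 and RSPO2 were among their 10 leading genes. Marker counts alone therefore do not separate these types from choroid plexus. In nuclei, an excitatory neuron-like cluster was led by heat-shock genes (HSPA1B, DNAJB1), and radial glia-like clusters by FOS and EGR1, by ATF3, and by the glycolytic genes SLC2A1 and PFKFB4.

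Levels are summed counts per 10000 transcripts of a type. With 1 library of each kind and no map from barcodes to conditions, no test was possible, and intervals in brackets are exact 95% intervals that cover counting error only. The SD between the 8 sub-libraries of the cells library, and the 2 values of the sub-libraries of nuclei, give the technical spread. A level is set beside that of free RNA, taken from barcodes of 10 to 100 transcripts, and a level at a small fraction of it can come from such RNA alone and is not read as expression. In cells, 407 barcodes above 50000 transcripts held 28.5% of the kept transcripts, so pooled levels of cells lean on these barcodes. The medians over wells with at least 20 cells of a type lay apart from the pooled levels for ROBO2, at 4.83 in excitatory neuron-like and 10.4 in intermediate progenitor-like cells against 7.11 and 14.1 pooled. For SLIT3 they were 3.52 in cortical hem-like, 3.95 in choroid plexus-like and 1.13 in Cajal-Retzius-like cells against 9.18, 6.84 and 4.61, and for ROBO3 0.352 in Cajal-Retzius-like cells against 1.36. For SLIT1 they were 5.41 in excitatory neuron-like and 6.05 in intermediate progenitor-like cells, the other way round from the pooled 4.87 and 4.50. The 48 wells of the initial barcoding round in cells and the 12 in nuclei hold material of unknown condition, and are given by range, median and count. Whether wells share an organoid or batch is not known, so counts of wells are not counts of independent samples.

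Well D12 of the cells library stood apart for SLIT3. It held 557 of the kept cells, 2.76%, and 52.2% of the SLIT3 counts, at a level of 27.4 against 0.671 in all other wells together. The median well was at 0.714 and the next highest, D6, at 3.68. SLIT3 was high there in every named type, at 20.9 in 23 radial glia-like cells, 27.4 in 366 cortical hem-like cells, 30.6 in 74 choroid plexus-like cells and 27.3 in 39 Cajal-Retzius-like cells, and in free RNA at 8.17 against 0.778 elsewhere. SLIT2 was also highest in this well, at 9.14, with A5 next at 8.01. SLIT3 levels by type, their ratios and the main shares of barcodes that D12 moved are therefore given with and without this well. Levels per length, the remaining shares and the figure of shares include it. Well D6 stood apart for ROBO3, at 0.619 against a median of 0.0607 over the 48 wells, and free RNA of that well was higher still, at 0.882. The wells differed in many other genes. In D12, cortical hem-like cells had 835 genes (5.48% of those tested) at least 2-fold higher and 516 (3.39%) lower than the same type elsewhere, with SLIT3 only rank 17 by the lower bound of the ratio, and in D6 Cajal-Retzius-like cells had 299 (3.89%) higher and 442 (5.75%) lower. These wells were singled out after the values were seen.

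**Figure D1:**
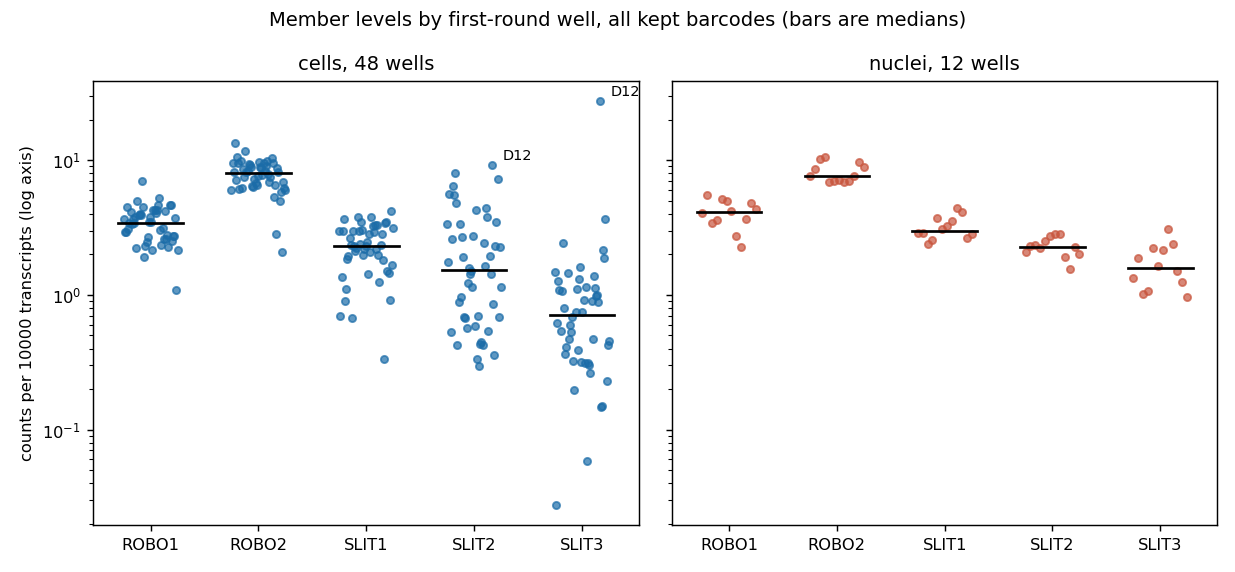
Level of ROBO1, ROBO2, SLIT1, SLIT2 and SLIT3 (counts per 10000 transcripts, log axis) in the 48 barcoding wells of the cells library and the 12 of the nuclei library, 1 point per well, with a bar at the median. For SLIT3 in cells, well D12 lies at 27.4, far above the median well at 0.714 and the next well at 3.68.

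Over all kept barcodes, ROBO2 was the member with the most transcripts, at 7.50 in cells and 8.74 in nuclei, followed by ROBO1 (3.43 and 4.22) and SLIT1 (2.65 and 3.05). SLIT2 stood at 1.95 and 2.22 and SLIT3 at 1.37 (0.671 without D12) and 1.55. ROBO3 was rare, with 1303 and 870 counts in all, and ROBO4 had 62 and 5 counts. Divided by the length of the exons, the order of levels per kb in cells was ROBO2 (0.450), ROBO1 (0.310), SLIT1 (0.289), SLIT2 (0.176), SLIT3 (0.0959) and ROBO3 (0.0119), and the order in nuclei was the same. Divided by the whole gene span it changed: per 1000000 transcripts and 100 kb of gene, SLIT1 led in cells at 141, ahead of SLIT2 (53.0), ROBO3 (51.6), ROBO2 (43.0), ROBO1 (29.3) and SLIT3 (21.4). The order between members therefore depended on which length was used. The genes span from 14.8 kb (ROBO4) and 16.0 kb (ROBO3) to 1171 kb (ROBO1, chr3:78597239-79767998, minus strand) and 1743 kb (ROBO2, chr3:75906695-77649964, plus strand).

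**Figure D2:**
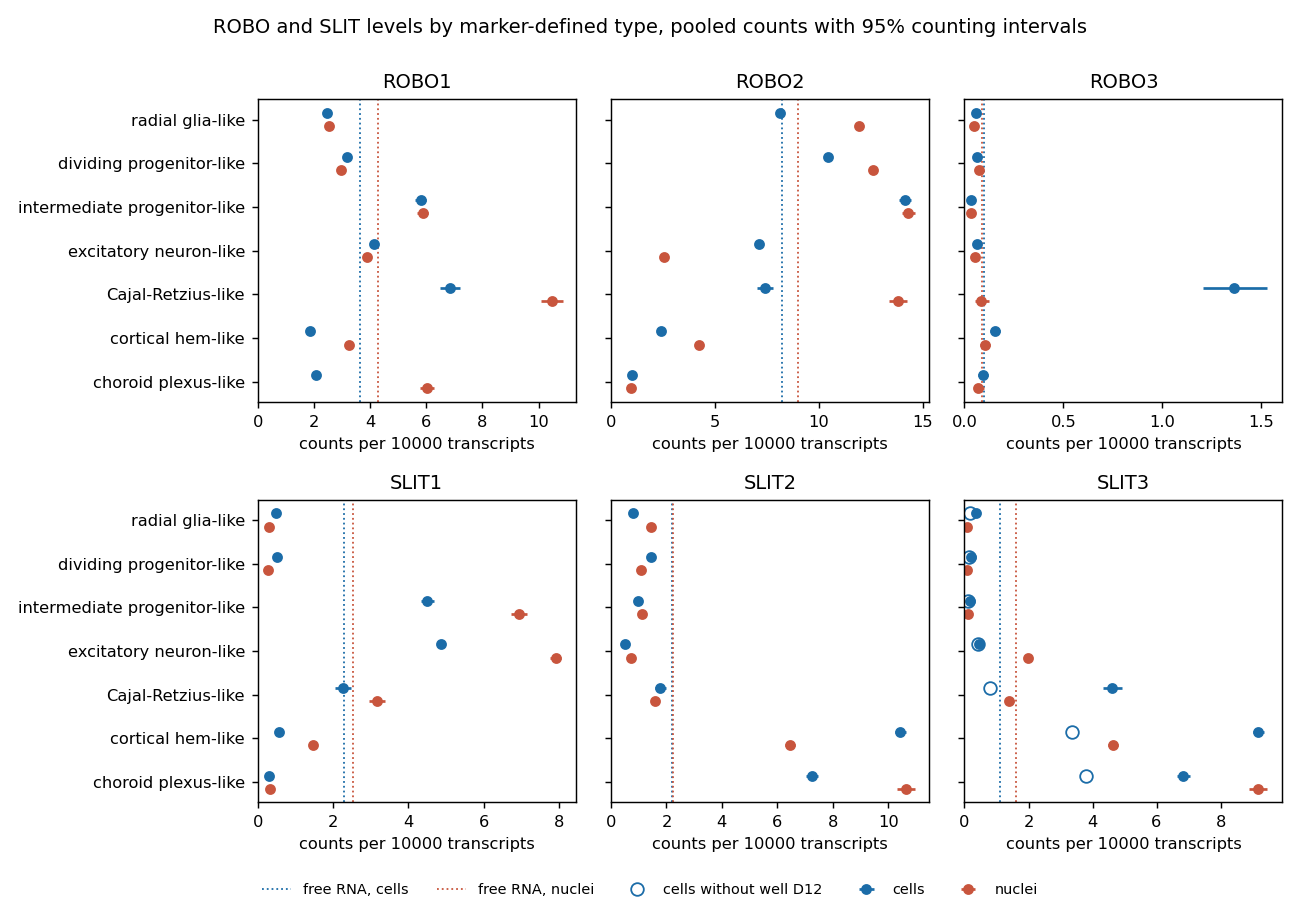
Level of 6 members, all but ROBO4 (counts per 10000 transcripts, linear axis) in each marker-defined type, cells in blue and nuclei in red, with exact 95% counting intervals; dotted lines give free RNA, and open circles give SLIT3 in cells without well D12. The ROBO2 points are highest in intermediate progenitor-like barcodes (14.1 and 14.3), the SLIT1 points in excitatory neuron-like ones (4.87 and 7.91), and SLIT2 and SLIT3 in the cortical hem-like and choroid plexus-like types.

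ROBO1, a receptor for SLITs in cortical progenitors and axons, was highest in the Cajal-Retzius-like type and next in intermediate progenitor-like cells. In cells the level was 6.84 ± 2.06 (SD, n = 8 sub-libraries) in Cajal-Retzius-like, 5.80 ± 0.959 in intermediate progenitor-like and 4.14 ± 0.338 in excitatory neuron-like cells. It was 3.18 ± 0.312 in dividing progenitor-like, 2.47 ± 0.271 in radial glia-like, 2.09 ± 0.809 in choroid plexus-like and 1.87 ± 0.277 in cortical hem-like cells. Within the top 2 types in this order, and within the lowest 3, adjacent types differed by less than the larger of their SDs between sub-libraries. In nuclei the level was 10.5 in Cajal-Retzius-like, 6.02 in choroid plexus-like, 5.87 in intermediate progenitor-like, 3.88 in excitatory neuron-like, 3.24 in cortical hem-like, 2.97 in dividing progenitor-like and 2.54 in radial glia-like nuclei. The sub-library values of choroid plexus-like (5.58 and 6.38) and intermediate progenitor-like nuclei (5.85 and 5.89) overlapped. Free RNA was at 3.64 and 4.29, so only the Cajal-Retzius-like, intermediate progenitor-like and, in cells, excitatory neuron-like and, in nuclei, choroid plexus-like levels lay above it. Choroid plexus-like barcodes were thus among the lowest for ROBO1 in cells and among the highest in nuclei.

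ROBO2, the closest relative of ROBO1 and its neighbour on chromosome 3, was highest along the path from dividing to intermediate progenitors. In cells it stood at 14.1 ± 2.12 in intermediate progenitor-like, 10.4 ± 0.469 in dividing progenitor-like and 8.12 ± 0.333 in radial glia-like cells. It was 7.38 ± 1.66 in Cajal-Retzius-like, 7.11 ± 0.512 in excitatory neuron-like, 2.39 ± 0.556 in cortical hem-like and 0.999 ± 0.342 in choroid plexus-like cells. Cajal-Retzius-like cells differed from both neighbours in this order by less than their SD. The nuclei gave 14.3 in intermediate progenitor-like, 13.8 in Cajal-Retzius-like, 12.6 in dividing progenitor-like and 11.9 in radial glia-like nuclei, of which the Cajal-Retzius-like sub-library values, 11.5 and 15.7, spanned the other 3. The remaining nuclei were far lower, at 4.22 in cortical hem-like, 2.56 in excitatory neuron-like and 0.972 in choroid plexus-like nuclei. Free RNA was at 8.20 and 8.97. ROBO2 in excitatory neuron-like, cortical hem-like and choroid plexus-like barcodes was thus below free RNA in both libraries, down to 0.122 and 0.108 times that level in choroid plexus-like barcodes.

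ROBO3 was near the free RNA level, 0.101 in cells and 0.0871 in nuclei, in most types. Its levels ran from 0.0353 (intermediate progenitor-like) to 0.153 (cortical hem-like) in cells and from 0.0311 to 0.102 in the same types in nuclei. The exception was the Cajal-Retzius-like type in cells, at 1.36 (1.20 to 1.53) from 274 counts. Its spread was wide: sub-libraries ran from 0.0725 to 3.44, and the level was 3.79 in the 33 such cells of well D6 and 1.06 in the 166 of all other wells. The Cajal-Retzius-like nuclei stood at 0.0825 (0.0523 to 0.124), within the free RNA interval. In nuclei ROBO3 was instead highest in an unnamed cluster of 302 nuclei at 2.06, a cluster with ROBO3 itself, SKOR2, CA8 and TFAP2A among its 10 leading genes, and also EBF3, a marker that the Cajal-Retzius list holds. That cluster also had the highest ROBO1 level of the library, 14.3.

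Over all kept barcodes ROBO4 was not detectable above background, with 62 counts in cells and 5 in nuclei, against 18 and 0 in free RNA. An unnamed cluster of cells held 9 of those counts, a level of 0.0414 (0.0189 to 0.0786) against 0.00524 (0.00311 to 0.00828) in free RNA. After each barcode was thinned to 1000 transcripts, 10 of 20178 cells (0.0496%) held a ROBO4 transcript. An antisense long non-coding gene that overlaps ROBO4, ENSG00000254568, had more counts, 91 and 41, and whether counting used strand is not given in the sources used here. Overlapping genes could also share reads with SLIT1: the readthrough ARHGAP19-SLIT1 had 647 and 307 counts and SLIT1-AS1 54 and 16, against 41612 and 22011 for SLIT1 itself.

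SLIT1, the ligand known best from the nervous system, was highest in the excitatory neuron-like and intermediate progenitor-like types, although not in every cluster of the latter. The cells gave 4.87 ± 0.564 (SD, n = 8 sub-libraries) in excitatory neuron-like and 4.50 ± 1.20 in intermediate progenitor-like cells, which differed by less than the SD. Cajal-Retzius-like cells were at 2.26 ± 0.536, and the rest between 0.290 (choroid plexus-like) and 0.573 (cortical hem-like). Nuclei showed the same order at the top, with 7.91 in excitatory neuron-like, 6.93 in intermediate progenitor-like and 3.17 in Cajal-Retzius-like nuclei. Cortical hem-like nuclei were at 1.46, and choroid plexus-like, radial glia-like and dividing progenitor-like nuclei at 0.325, 0.307 and 0.269. Free RNA held 2.30 and 2.53, so the radial glia-like, dividing progenitor-like and choroid plexus-like levels, at most 0.217 times that, are not read as expression. Excitatory neuron-like barcodes held 31.1% of all SLIT1 counts of the cells library and 54.0% of those of nuclei.

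SLIT2, a ligand with a known part in commissural axon repulsion, was highest in the cortical hem-like and choroid plexus-like types. Its level in cells was 10.4 ± 2.20 in cortical hem-like and 7.26 ± 1.37 in choroid plexus-like cells, and no other type exceeded the free RNA level of 2.19. Next came Cajal-Retzius-like (1.77 ± 0.418) and dividing progenitor-like cells (1.44 ± 0.135), and excitatory neuron-like cells were lowest at 0.501 ± 0.0757. The nuclei had the top pair in the other order, 10.6 in choroid plexus-like and 6.46 in cortical hem-like nuclei, with free RNA at 2.23 and all other types between 0.731 and 1.58. Cortical hem-like and choroid plexus-like cells held 38.2% and 15.1% of the SLIT2 counts of their library (32.3% and 15.5% without D12). In nuclei these types held 28.7% and 27.6%. The range over wells stayed above these pooled free RNA levels: cortical hem-like wells ran from 3.34 to 19.8 in cells and from 4.62 to 9.32 in nuclei, and choroid plexus-like wells from 3.92 to 10.2 and from 8.71 to 12.9. Free RNA differed between wells too. Beside the free RNA of its own well, SLIT2 was higher in 10 of 10 wells of cortical hem-like cells and in 7 of 8 of choroid plexus-like cells, the exception being D12 at 6.38 against 10.0, and in 12 of 12 and 8 of 8 wells of nuclei.

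SLIT3, the third ligand, shared this pattern. In nuclei an excitatory neuron-like cluster, at 3.23, also lay above free RNA, while the other excitatory neuron-like clusters, at 0.439 and 0.472, did not. In cells it stood at 9.18 ± 1.63 in cortical hem-like and 6.84 ± 1.82 in choroid plexus-like cells, which became 3.36 and 3.81 without D12, where these types held 27.9% and 20.9% of the SLIT3 counts. The Cajal-Retzius-like level was 4.61 ± 4.08 and fell to 0.789 without that well. All other types lay below free RNA (1.10), at 0.439 in excitatory neuron-like cells (0.412 without D12), 0.372 (0.186) in radial glia-like, 0.215 (0.150) in dividing progenitor-like and 0.178 (0.108) in intermediate progenitor-like cells. Nuclei gave 9.17 in choroid plexus-like, 4.64 in cortical hem-like, 1.98 in excitatory neuron-like and 1.39 in Cajal-Retzius-like nuclei, with free RNA at 1.60 and the 3 progenitor types between 0.0769 and 0.106. Excitatory neuron-like nuclei, 3077 of the 14228 kept, held 26.6% of the SLIT3 counts of that library. Choroid plexus-like nuclei (407) held 34.0% and cortical hem-like nuclei (1038) 29.5%.

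Clusters that shared a name differed in these genes. Among excitatory neuron-like cells, the cluster led by CEMIP, UNC5A and PRDM8 had SLIT1 at 7.50 and ROBO2 at 4.46, and the cluster led by IL22RA2, LMO3 and GRIK3 had SLIT1 at 3.08 and ROBO2 at 8.90. Within excitatory neuron-like nuclei, SLIT3 was concentrated in the cluster led by OPCML, CDH7 and GRIK3, at 3.23 against 0.439 in the heat-shock cluster and 0.472 in the cluster led by CEMIP. ROBO1 was lowest in that heat-shock cluster, 1.36 against 4.84 and 3.39. Intermediate progenitor-like nuclei split in SLIT1: the cluster with EBF2 among its leading genes was at 10.3, and the cluster led by EOMES, NEUROD4 and HES6 at 0.600, while ROBO2 stood at 12.2 and 18.2.

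For the comparisons that follow, a member is called where its level differs at least 2-fold between types and the counting interval of the ratio excludes 1, and the share of all tested genes called in the same way is given as the background. Between excitatory neuron-like and radial glia-like cells, 1 of the 6 members tested was called higher, against 7% of all genes, and none lower, against 6.53%. In nuclei 2 were higher, against 10.4%, and 1 lower, against 17.9%. SLIT1 was higher in neurons in both, 10.0-fold (9.25 to 10.8) in cells and 25.8-fold (23.2 to 28.7) in nuclei, with the radial glia-like level below free RNA. Over the alternatives these were 4.23-fold to 15.3-fold and 7.82-fold to 38.7-fold. It was higher in 19 of 19 wells of cells and 12 of 12 wells of nuclei that held at least 20 barcodes of both types, and the wells did not overlap: 2.89 to 12.2 against 0.0700 to 0.902 in cells, and 6.40 to 10.9 against 0.0733 to 0.692 in nuclei.

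ROBO2 went the other way, and by a different amount in each library. Excitatory neuron-like nuclei were 4.65-fold (4.48 to 4.82) below radial glia-like nuclei, in 12 of 12 wells, with 1.00 to 3.46 in neurons against 8.85 to 13.6. Excitatory neuron-like cells were 1.14-fold (1.12 to 1.17) below radial glia-like cells when counts were pooled, with a median ratio of 0.607 over 19 wells and a lower level in 16 of them. The ranges over wells overlapped in cells, 2.27 to 15.8 in neurons against 6.02 to 9.94. ROBO1 was 1.68-fold (1.61 to 1.74) and 1.53-fold (1.46 to 1.60) higher in neurons, in 18 of 19 and 8 of 12 wells. Without well A10 the ROBO1 ratio of nuclei was 1.19. SLIT2 was 1.59-fold (1.47 to 1.72) and 1.99-fold (1.85 to 2.15) lower, in 14 of 19 and 11 of 12 wells, and was past 2-fold lower with a minimum of 3000 transcripts, at 2.34-fold and 2.52-fold. The SLIT2 levels of both types lay below free RNA, at 0.501 and 0.796 against 2.19 in cells and at 0.73 and 1.46 against 2.23 in nuclei.

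SLIT3 was 22.3-fold (18.3 to 27.5) higher in excitatory neuron-like than in radial glia-like nuclei, at least 6.55-fold over the alternatives, and higher in 12 of 12 wells. The radial glia-like level, 0.0889, was far below free RNA at 1.60. Of the neuron clusters, that at 3.23 was above free RNA and those at 0.439 and 0.472 were below it. In cells it was 1.18-fold (1.06 to 1.31) higher, and 2.21-fold (1.93 to 2.55) without D12, where it joined SLIT1 as the members called higher, against 7% of all genes higher and 6.5% lower. Both levels in cells lay below free RNA, and with types from single barcodes the ratio turned to 0.575. The change from 1.18-fold to 2.21-fold came from leaving out the 2 excitatory neuron-like and 23 radial glia-like cells of D12. ROBO3 was at 1.13 (0.863 to 1.49) and 1.07 times the radial glia-like level, and ROBO4 had too few counts to be tested.

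**Figure D3:**
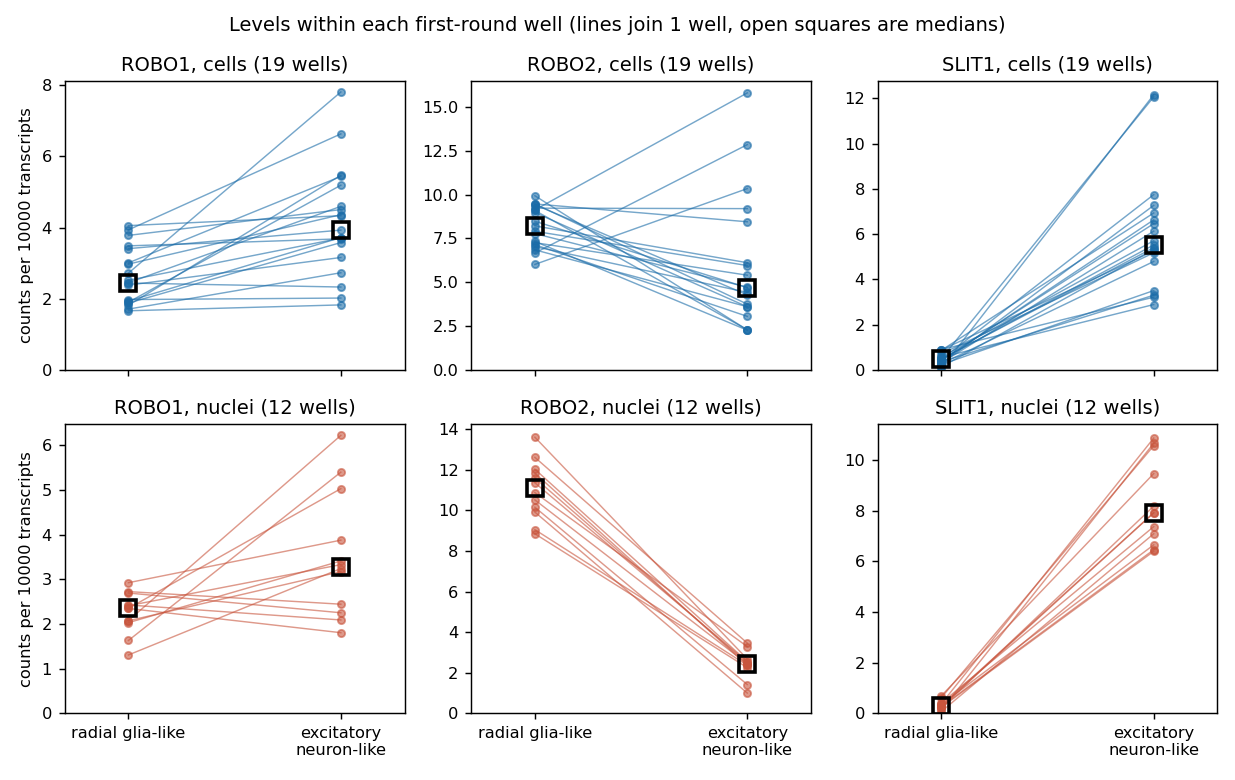
ROBO1, ROBO2 and SLIT1 levels (counts per 10000 transcripts) in excitatory neuron-like against radial glia-like barcodes of the same well, joined by 1 line per well with open squares at the medians, for 19 wells of cells and 12 of nuclei. SLIT1 is higher in neurons in every well shown, and ROBO2 is lower in 16 of 19 wells of cells and in 12 of 12 of nuclei.

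Intermediate progenitors lie between radial glia and neurons, and their levels were compared with both. Against radial glia-like cells, ROBO1 was 2.35-fold higher (2.24 to 2.47; 9 of 9 wells) and SLIT1 9.25-fold higher (9 of 9 wells), 2 members called higher against 4.89% of all genes. In nuclei the same 2 were called, at 2.31-fold (10 of 12 wells, and 1.94-fold without well A10, which ends the call) and 22.6-fold (12 of 12 wells), against 6.01% of all genes. The SLIT1 value pools a cluster at 10.3 with the EOMES cluster at 0.600. In both libraries the radial glia-like levels of SLIT1 and SLIT3 were below free RNA. ROBO2 was 1.74-fold and 1.20-fold higher. SLIT3 was 2.09-fold lower in cells, 1 member against 9.86% of genes, and 1.73-fold lower without D12, which ends that call (4.91% of genes were higher and 9.83% lower without that well). No member was called lower in nuclei, against 12.1% of genes.

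From intermediate progenitor-like to excitatory neuron-like barcodes, pooled SLIT1 stayed within 2-fold, at 1.08 and 1.14 times. In nuclei the intermediate progenitor-like level pools a cluster at 10.3 and one at 0.600, against 7.91 in excitatory neuron-like nuclei. The cluster at 10.3 held 5 intermediate progenitor and 5 excitatory neuron markers. ROBO2 was lower in neurons, 1.99-fold in cells (median ratio 0.297 over wells, lower in 9 of 9) and 5.58-fold in nuclei (12 of 12 wells). That was 1 member called lower in nuclei, against 8.69% of genes, and 0 in cells, where ROBO2 just missed the threshold and 2.75% of genes were called. ROBO1 was 1.40-fold and 1.51-fold lower and SLIT2 1.94-fold and 1.55-fold lower. The SLIT2 levels of both types lay below free RNA in each library. SLIT3 was higher in neurons, 2.46-fold in cells (3.82-fold without D12, both levels below free RNA) and 18.6-fold in nuclei, the 1 member called higher in each library against 8.63% and 9.48% of genes. The intermediate progenitor-like level of nuclei, 0.106, was also below free RNA (1.60). Between dividing progenitor-like and radial glia-like barcodes no member was called in either direction: 3.59% of genes were higher and 4.66% lower in cells, and 3.74% and 6.42% in nuclei.

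Cajal-Retzius cells are early neurons of the marginal zone that secrete reelin. Against radial glia-like cells, 5 members were called higher in cells, against 8.87% of genes: ROBO1 (2.77-fold), ROBO3 (23.5-fold, 18.3 to 30.6), SLIT1 (4.64-fold), SLIT2 (2.23-fold) and SLIT3 (12.4-fold, and 4.24-fold without D12, where 8.5% of genes were called higher and 8.71% lower). Only 2 wells held 20 cells of both types, and there SLIT2 was lower, at 0.621 and 0.779 times, while the other 4 were higher in both, SLIT3 by only 1.31 and 1.97 times. Below free RNA in cells were the pooled levels of SLIT2 (1.77 against 2.19) and SLIT1 (2.26 against 2.30). Without D12, SLIT3 was at 0.789, about the free RNA level of the same wells (0.778). In nuclei 3 were called, against 10.7%: ROBO1 (4.12-fold), SLIT1 (10.3-fold) and SLIT3 (15.6-fold, and 9.93-fold without well A12), each in 12 of 12 wells, with the SLIT3 level of 1.39 below free RNA at 1.60. The radial glia-like levels of SLIT1 and SLIT3 were below free RNA in both libraries. Both the Cajal-Retzius-like type and its wells were few in cells, and its name passed to other clusters of nuclei under some alternatives, where ROBO3 ranged from 0.391 to 34.0 times and ROBO1 from 0.671 to 4.85 times the radial glia-like level. No member was called lower, against 7.81% and 15% of genes.

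Compared with excitatory neurons, Cajal-Retzius-like barcodes had less SLIT1, 2.15-fold lower in cells (1.89-fold without well D10, which ends the call) and 2.49-fold in nuclei (12 of 12 wells), 1 member called lower in each against 3.75% and 4.05% of genes. ROBO2 was 5.39-fold higher in nuclei (12 of 12 wells) but at 1.04 times in cells. ROBO1 was 1.65-fold and 2.70-fold higher, SLIT2 3.54-fold and 2.16-fold. In cells the members called higher were 3, ROBO3 (20.8-fold), SLIT2 and SLIT3 (10.5-fold, and 1.91-fold without D12, which ends that call), against 6.69% of genes. A single well of cells held 20 of both types, and SLIT3 was lower there, at 0.769 times. The SLIT2 levels of Cajal-Retzius-like barcodes were below free RNA in both libraries. In nuclei they were ROBO1, ROBO2 and SLIT2, also 3, against 7.71%.

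The dorsal midline types had the highest SLIT2 and SLIT3 levels of the named types and little ROBO2. Against radial glia-like cells, cortical hem-like cells had 13.1-fold more SLIT2 (12.3 to 14.0, 6 of 6 wells, with a median of 4.64). They had 24.6-fold more SLIT3 (6 of 6 wells, with a median of 11.8 and a range of 1.31 to 34.5). Without D12 the SLIT3 ratio was 18.1, with 10.4% of genes called higher and 5.01% lower. Nuclei gave 4.43-fold for SLIT2 and 52.2-fold (42.8 to 64.3) for SLIT3, each in 12 of 12 wells. The radial glia-like levels of both ligands lay below free RNA. For SLIT3 they were 0.372 (0.186 without D12) against 1.10 in cells and 0.0889 against 1.60 in nuclei, so the size of its ratios rests on levels not read as expression. With ROBO3 at 2.65-fold and 2.08-fold (1.72-fold in nuclei without well A10, which ends the call), 3 members were called higher in cells, against 11.6% of genes. ROBO3 in cortical hem-like barcodes was above the free RNA of its own well in 6 of 10 wells of cells, not in D12 (0.258 against 0.319) or D6 (0.191 against 0.882), which hold 366 and 125 of these cells, and in 7 of 12 wells of nuclei. SLIT1 at 4.76-fold (10 of 12 wells) made 4 in nuclei, against 10.6%, but its cortical hem-like level of 1.46 lay below free RNA at 2.53, and with types from single barcodes the ratio turned to 0.478. ROBO2 was the 1 member called lower, 3.40-fold in cells (6 of 6 wells) and 2.82-fold in nuclei (12 of 12 wells), against 4.53% and 6.27% of genes. Over the alternatives that named the type, SLIT2 was 7.34-fold to 13.6-fold higher in cells and 4.27-fold to 9.07-fold in nuclei, SLIT3 18.1-fold to 30.4-fold and 24.96-fold to 73.0-fold. No cells were named cortical hem-like under 5 of the alternatives, among them another random seed for the clustering.

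Choroid plexus-like barcodes showed the same with larger ROBO2 differences. SLIT2 was 9.12-fold higher than in radial glia-like cells (7 of 7 wells) and 7.30-fold higher in nuclei (8 of 8 wells). SLIT3 was 18.4-fold higher in cells (20.5-fold without D12, with 13.3% of genes called higher and 15.7% lower) and 103-fold in nuclei (84.6 to 127). The 103-fold value rests on a radial glia-like level of 0.0889 against free RNA at 1.60. Both SLIT2 and SLIT3 were below free RNA in radial glia-like barcodes of each library. These 2 were called higher in cells, against 13.8% of genes, and ROBO1, at 2.37-fold in nuclei (7 of 8 wells, and 1.70-fold without well A10, which ends the call), made 3 there, against 13.3%. ROBO2 was 8.13-fold lower in cells (7 of 7 wells) and 12.3-fold lower in nuclei (8 of 8 wells), the 1 member called lower against 14.9% and 20.9% of genes. These sizes moved with the clustering and naming. Over the alternatives SLIT3 was 7.04-fold to 23.7-fold higher in cells and 30.6-fold to 119-fold in nuclei, SLIT2 3.76-fold to 11.0-fold and 5.77-fold to 8.81-fold, and ROBO2 2.67-fold to 13.3-fold lower in cells and 3.95-fold to 24.6-fold in nuclei. ROBO1 in cells was 0.845 times the radial glia-like level, and lower in 4 of 7 wells.

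Set against each other, choroid plexus-like barcodes had less ROBO2 than cortical hem-like ones, 2.39-fold in cells (6 of 6 wells) and 4.34-fold in nuclei (8 of 8 wells). SLIT1 was 1.98-fold lower in cells and 4.51-fold lower in nuclei. ROBO2 was the 1 member called lower in cells, against 7.82% of genes, and with SLIT1 2 were called in nuclei, against 11.9%. The levels behind these calls all lay below free RNA. ROBO2 was at 0.999 and 2.39 against 8.20 in cells and at 0.972 and 4.22 against 8.97 in nuclei, and SLIT1 at 0.325 and 1.46 against 2.53 in nuclei. SLIT2 and SLIT3 were at 0.696 and 0.745 times the cortical hem-like level in cells (SLIT3 1.13 without D12) and at 1.65 and 1.98 times in nuclei. Both ligands were higher in choroid plexus-like nuclei in 8 of 8 wells but in 3 of 6 wells of cells, so the wells of cells had no shared direction. None was called higher, against 5.55% and 7.19% of genes.

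Ligand and receptor transcripts in the same barcode were counted after each barcode was thinned to 1000 transcripts, because the share of barcodes with a transcript grows with depth. At that depth 76.5% of kept cells and 76.0% of nuclei held a transcript of at least 1 member, and 93.3% and 93.6% did at their full depth. A ROBO transcript was found in 61.6% and 58.2%, a SLIT transcript in 34.5% (32.8% without D12) and 33.3%, and both in 19.6% and 15.6%. Free RNA gives transcripts to every barcode, and SLIT1 in choroid plexus-like barcodes, which stood at 0.126 and 0.128 times the free RNA level, was found in 4.05% and 1.47%. Shares at that height are not read as expression, among them SLIT1 in radial glia-like barcodes (4.11% and 2.48%).

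Progenitor types held a receptor more often than a ligand, and the midline types a ligand more often than a receptor. All kept barcodes had the balance of the progenitor types, with a ROBO in 61.6% and 58.2% and a SLIT in 34.5% and 33.3%. Free RNA did too, with ROBO2 at 8.20 and 8.97 against at most 2.30 and 2.53 for a SLIT. In radial glia-like cells ROBO1 (2.47) and ROBO2 (8.12) lay below free RNA (3.64 and 8.20), so their ROBO share cannot be set apart from it. Radial glia-like barcodes held a ROBO transcript in 57.1% of cells and 66.3% of nuclei and a SLIT transcript in 12.8% and 14.0%. Dividing progenitor-like barcodes held a ROBO in 68.7% and 71.9% and a SLIT in 19.6% and 11.8%. Cortical hem-like barcodes were the reverse, with a ROBO in 29.7% and 32.7% and a SLIT in 75.0% and 61.8%, as were choroid plexus-like ones, with 25.3% and 32.9% against 70.2% and 79.9%. Without D12 the SLIT shares of cells were 63.7% in cortical hem-like and 65.7% in choroid plexus-like cells. Cajal-Retzius-like barcodes held a ROBO in 57.8% and 64.3%, a SLIT in 44.7% (34.4% without D12) and 35.4%, and both in 23.6% (19.4% without D12) and 23.4%.

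Intermediate progenitor-like barcodes held a ROBO in 77.5% and 69.2% and a SLIT in 32.5% and 42.1%, and both in 24.2% and 25.7%. Excitatory neuron-like barcodes held a ROBO in 55.3% of cells but 34.5% of nuclei, and a SLIT in 43.4% and 57.3%. Both were found in 23.7% and 18.1% of them. SLIT2 and SLIT3 together were found in 25.1% and 14.8% of cortical hem-like and in 16.2% and 30.2% of choroid plexus-like barcodes, and without D12 in 12.6% of the former and 12.9% of the latter type in cells. SLIT3 was found in 50.1% of cortical hem-like cells with SLIT2 and in 46.5% of those without (26.5% and 25.9% without D12), and in 38.2% and 31.2% in nuclei. In choroid plexus-like barcodes it was found in 33.3% of cells with SLIT2 and 39.8% of those without (25.7% and 28.6% without D12), and in 52.1% and 49.7% in nuclei. ROBO2 was found in 73.4% of intermediate progenitor-like cells with ROBO1 and 60.7% without, and in 62.5% and 54.2% in nuclei. Among excitatory neuron-like nuclei ROBO2 was found in 14.4% of those with SLIT1 and 20.6% of those without. In such cells the shares were 36.9% and 39.5%, with overlapping intervals. ROBO1 was found in 30.7% with SLIT1 and 28.2% without in cells, and in 19.7% and 22.1% in nuclei, so its direction differed.

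**Figure D4:**
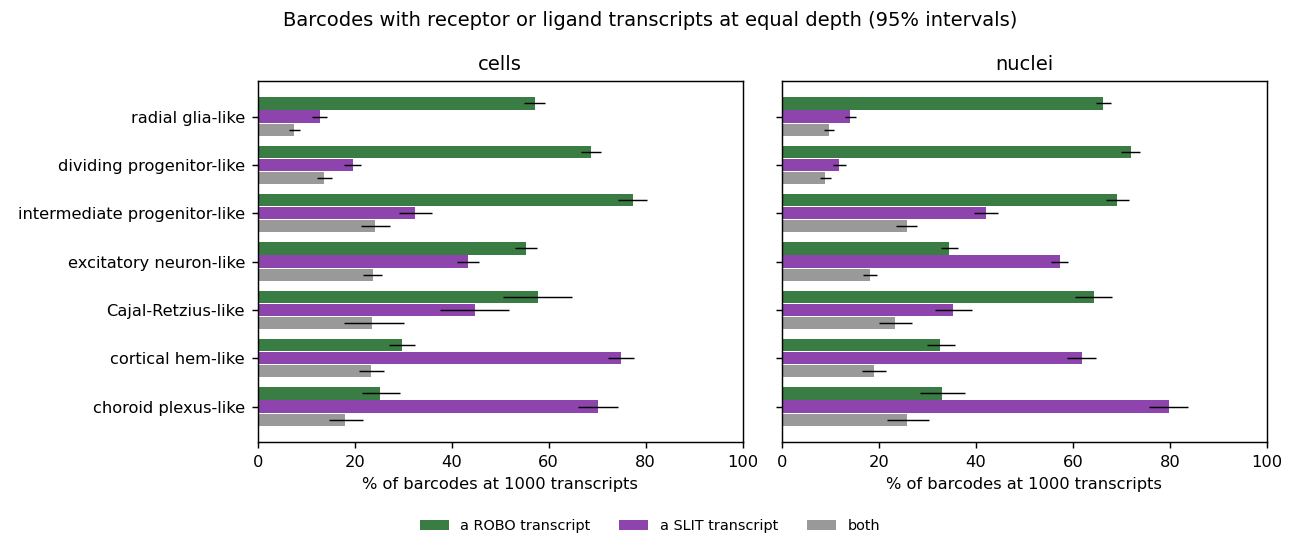
Percent of barcodes of each type that held a ROBO transcript, a SLIT transcript or both after thinning to 1000 transcripts, in cells (left) and nuclei (right), with exact 95% binomial intervals. Radial glia-like barcodes hold a ROBO in 57.1% and 66.3% and a SLIT in 12.8% and 14.0%, and cortical hem-like and choroid plexus-like barcodes show the opposite balance. Shares of cells are drawn with well D12.

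A list of 41 genes of SLIT-ROBO signalling and of its partners was compared between excitatory neuron-like and radial glia-like barcodes. In cells 6 were called higher (14.6%) and 4 lower (9.76%), beside 7% and 6.53% of all genes. In nuclei 40 could be tested, and 6 were higher (15%) and 4 lower (10%), beside 10.4% and 17.9%. The median ratio of the list was 0.990 and 0.932, and that of all genes 0.926 and 0.840. Of the list, 29 genes were within 2-fold in both libraries. Among them were the ROBO-bound GTPase activator SRGAP3 (0.842 and 0.642 times), the deubiquitinase USP33 that binds ROBO1 (1.06 and 1.03), the actin regulator ENAH (1.10 and 0.993), the kinase PAK3 (1.59 and 1.52) and the microtubule-binding CLASP2 (1.45 and 1.59).

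The genes higher in neurons in both libraries were 5. DCC, the netrin receptor whose response SLIT can silence through ROBO, was 11.2-fold and 30.8-fold higher, at 20.1 and 43.4 counts per 10000 transcripts against 1.80 and 1.41. NELL2, the ligand of ROBO3, was 10.7-fold and 21.2-fold higher. Its receptor partner ROBO3 was near the free RNA level in both types. The DCC relative NEO1 was 3.23-fold and 3.21-fold higher and the actin-binding CAP2 3.05-fold and 3.71-fold. The chemokine CXCL12 was higher too, at 11.7-fold (5.24 to 32.4) and 99.8-fold (17.6 to 3969), from few counts.

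Lower in neurons in both were 3 genes: the heparan sulphate proteoglycan SDC2, of a class that binds SLIT, 2.62-fold and 8.31-fold, the CXCL12 receptor CXCR4, 3.21-fold and 3.89-fold, and the secreted factor NDNF, 2.04-fold and 3.53-fold. In 1 library alone, SRGAP1 was higher (2.14-fold) and SDC4 lower (2.16-fold) in cells, and SDC3 was higher (2.68-fold) and FLRT3 lower (3.12-fold) in nuclei. These 4 are named after their values were seen.

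**Figure D5:**
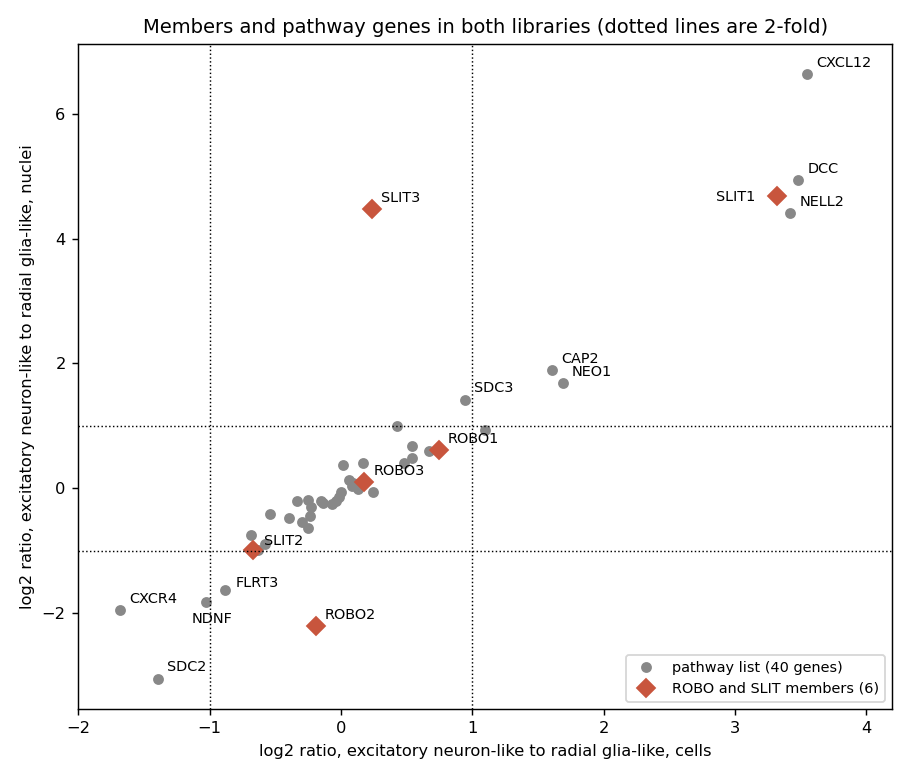
Log2 ratio of the level in excitatory neuron-like to that in radial glia-like barcodes, cells on the x axis and nuclei on the y axis, for 40 genes of the pathway list (grey) and 6 members (red diamonds); dotted lines mark 2-fold. SLIT1 lies beside DCC and NELL2, while ROBO2 and SLIT3 lie off the diagonal, near 0 in cells and past 2-fold in nuclei. SLIT3 in cells is drawn with well D12, and its ratio is 2.21 without that well.

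The genes whose levels across clusters were most like those of each member were ranked by the Pearson correlation of log2 levels, averaged over 21 clusters of cells and 19 of nuclei, among 11690 genes. These points share libraries and free RNA and carry no p. SLIT1 was most like NFASC, an axonal adhesion protein (0.947 in cells, 0.953 in nuclei), the microRNA host gene MIR124-1HG (0.939 and 0.939) and PHACTR3 (0.931 and 0.946). ROBO2 was most like the homeobox gene MEIS2 (0.926 and 0.899), GRK5 (0.893 and 0.864) and FRY (0.880 and 0.856). SLIT2 was most like the extracellular matrix gene FRAS1 (0.879 and 0.912), PRTG (0.885 and 0.886) and SLC15A4 (0.897 and 0.836).

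SLIT3 was most like SHISA9 (0.956 and 0.979), ABLIM1 (0.933 and 0.924) and MAP7 (0.927 and 0.914). ROBO1 had weaker partners, ENSG00000283982 (0.824 and 0.751), ENOX2 (0.743 and 0.828) and ENSG00000279726 (0.778 and 0.776), and ROBO3 had GREB1L (0.859 and 0.728), NAV2 (0.832 and 0.688) and GFRA1 (0.678 and 0.841). Of these 18 genes, 15 were kept without well D12. Among the members themselves, SLIT2 and SLIT3 correlated at 0.772 and 0.630 across clusters, and ROBO2 and SLIT3 at -0.752 and -0.761. ROBO1 and ROBO2 correlated at 0.612 in cells and -0.00463 in nuclei, so the receptor pair did not share 1 pattern over clusters in both libraries.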

How the data were processed

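Split-seq libraries of H9 organoids were used, 1 of cells and 1 of nuclei, each a single sample in its group. The authors deposited unfiltered counts of unique transcripts per barcode and gene, made from reads demultiplexed into 8 and 2 sub-libraries with 1 mismatch allowed and mapped with the Parse Biosciences pipeline to GRCh38. Their removal of free RNA (DecontX) and of doublets (scDblFinder) is not part of these counts, and doublets were kept here. The labels report 60000 cells and 20000 nuclei loaded. Of the names of kept barcodes, 99 occur in both libraries, and 2642 and 636 combinations of wells occur in more than 1 sub-library.

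Kept barcodes had a median of 2615 transcripts in cells (quartiles 1427 and 7224) and 3890 in nuclei. Clusters came from 2000 variable genes without the members or the pathway list, 30 principal components, 15 neighbours and Leiden resolution 1 (scanpy 1.11.5, Python 3.11.15). A cluster was named where at least 4 of a list's markers, at least 1.5-fold up and in at least 5% of its barcodes, agreed, and where no well held most of it. The mean log2 fold over the whole list also had to reach 0.4, and the cluster had to hold at least 50 barcodes. The list of glycolytic genes gave no names. Among lists that qualified, those with at least 2 markers in the 10 leading genes came first. Otherwise the list with the most markers gave the name, with ties settled by the mean log2 fold. Ratios are of summed counts, over genes with at least 50 counts in the 2 types together, with exact conditional binomial intervals, and intervals of levels are exact Poisson and of shares exact Clopper-Pearson (scipy 1.17.1). The scripts were tested on simulated data. Positions are from GENCODE v44.

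The named genes were all 7 members, the pathway genes past 2-fold in both libraries with 5 examples of others, and the 3 most alike genes for each member with at least 500 counts per library. The members and lists were chosen with earlier results of these data known. Alternatives covered the barcode filter, mitochondrial limit, doublets, clustering, type naming, averaging, fold, thinning depth and wells.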

Additional observations from a re-analysis of the deposited data

Results flagged for a closer look

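Some members differed between types in opposite directions in the 2 libraries, with counting intervals on opposite sides of 1. These differences between libraries were not tested, and the libraries also differ in days, treatments and preparation, which cannot be told apart. SLIT2 in dividing progenitor-like against radial glia-like barcodes was at 1.81 times in cells and 0.744 times in nuclei, and in intermediate progenitor-like barcodes at 1.22 and 0.775 times. The wells of cells were split for both, with medians of 1.03 and 1.03 and a higher level in 6 of 11 and 5 of 9 wells, and of the dividing clusters of cells 1 was at 2.52 and 1 at 0.861 counts per 10000 transcripts, against 0.796 in radial glia-like cells. The pooled SLIT2 levels of these types all lay below free RNA, at 2.19 in cells and 2.23 in nuclei. ROBO2 in Cajal-Retzius-like against radial glia-like barcodes was at 0.908 and 1.16 times, with 1 of 2 wells of cells on each side. ROBO1 against radial glia-like barcodes was at 0.759 and 1.27 times in cortical hem-like and at 0.845 and 2.37 times in choroid plexus-like ones, while it was higher in 3 of 6 wells of cortical hem-like cells and 7 of 12 of such nuclei (0.210 with types from single barcodes and 0.855 at Leiden resolution 2) and lower in 4 of 7 of choroid plexus-like cells. In choroid plexus-like against cortical hem-like barcodes, SLIT2 was at 0.696 and 1.65 times and SLIT3 at 0.745 and 1.98 times, the latter becoming 1.13 in cells without well D12, and each was higher in 3 of 6 wells of cells. SLIT3 in Cajal-Retzius-like against excitatory neuron-like barcodes was at 10.5 and 0.699 times, with 1.91 in cells without D12.

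Members were also above free RNA in clusters that got no name and entered no comparison, and 5 of these levels passed every named type of their library. SLIT1 stood at 5.17 counts per 10000 transcripts in an unnamed cluster of cells whose leading genes include HIF1A-AS3 and PDK1, above the free RNA level of 2.30. That cluster of 1120 cells held 5 glycolytic and 4 excitatory neuron markers. In the unnamed cluster of 302 nuclei led by SKOR2, ROBO1 stood at 14.3 and ROBO3 at 2.06, against free RNA at 4.29 and 0.0871. The others were SLIT2 at 10.7 (7.78 to 14.4) in an unnamed cluster of 33 cells, all from 1 well, and ROBO4 at 0.0414 (0.0189 to 0.0786) from 9 counts in another, with free RNA at 0.00524. SLIT2 was also at 3.51 in another cluster of cells and at 4.02 in the same 302 nuclei, with free RNA at 2.19 and 2.23, and SLIT3 was at 2.18 in an unnamed cluster of cells, with free RNA at 1.10. The cluster with SLIT2 at 3.51, of 114 cells with 94.7% from 1 well, held all 7 choroid plexus markers. Its ROBO2 was at 5.79 and its SLIT3 at 1.76. The choroid plexus-like cells had ROBO2 at 0.999, SLIT2 at 7.26 and SLIT3 at 6.84 (3.81 without D12).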

How the results depend on the processing

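Over 60 ratios to radial glia-like barcodes, 666 alternative values were computed, of which 495 counted as unchanged, 116 moved in size, 28 passed the threshold, 23 no longer did and 4 reversed. A ratio past 2-fold counted as unchanged where it stayed past 2-fold in the same direction, whatever its size. A ratio within 2-fold counted as unchanged inside its main counting interval, so moves in size were counted only for these. Reversals were counted only for ratios past 2-fold, and others also crossed 1, such as ROBO2 (1.16 to 0.384) and SLIT2 (1.08 to 0.414) in Cajal-Retzius-like nuclei and SLIT1 in choroid plexus-like cells (0.596 to 1.82). The causes were not tested. The reversals were ROBO1 in Cajal-Retzius-like nuclei, at 0.671 without the highest Scrublet (doublet) scores and 0.883 with the members kept for clustering, SLIT1 in cortical hem-like nuclei, at 0.478 with types from single barcodes, and SLIT2 in Cajal-Retzius-like cells, at 0.903 at Leiden resolution 0.5. The type with the highest level stayed for 3 members in cells with at most 10% mitochondrial transcripts, 2 at Leiden resolution 0.5 and 1 with types from single barcodes, and for 2 in nuclei with the last, against 6 by definition in each main result. Members past 2-fold higher in neurons than in radial glia were 2 in place of 1 in cells without well D12 and at a 1.5-fold threshold. Those lower were 1 in place of 0 in cells with a minimum of 3000 transcripts, Leiden resolution 0.5, types from single barcodes (each time SLIT2), members kept for clustering (ROBO2, 2.02-fold) and a 1.5-fold threshold. In nuclei they were 2 in place of 1 with 3000 transcripts, types from single barcodes, 1 barcode per well combination and 1.5-fold. Of the pathway list, 2 genes in place of 4 were lower in cells with 3000 transcripts, and 7 in place of 4 in nuclei at Leiden resolution 0.5. Of the 18 most alike genes, 10 were kept with an offset of 1 in place of 0.1. Barcodes with any member, 76.5% of cells and 76.0% of nuclei at 1000 transcripts, were 90.7% and 91.1% at 2000, 54.1% and 55.4% at 500 and 93.3% and 93.6% without thinning.

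No cells were named cortical hem-like under the study's filter, at most 10% mitochondrial transcripts, Leiden resolution 0.5, seed 1 or types from single barcodes, and no nuclei at resolution 0.5. Single barcodes gave no intermediate progenitor-like type, and no Cajal-Retzius-like one in cells. No paired analysis was possible because the 2 groups are 1 library each, share no pair of replicates and give no test, and types within a well were set side by side by direction and median alone. No replicate could be left out for the same reason. Leaving out each well in turn moved a ratio by more than 1.5 times for SLIT3 (D12 in cells, A12 in nuclei) and, from few counts, for ROBO3 in intermediate progenitor-like nuclei (A10, from 0.631 to 0.325 times the radial glia-like level). Apart from ROBO3, and SLIT3 in cells without D12, calls gained without 1 well were, in cells, ROBO2 (A8, 2.27-fold lower) and SLIT2 (D10, 2.01-fold lower) in neurons against intermediate progenitors and SLIT1 in choroid plexus against hem (D12, 2.39-fold lower), and in nuclei SLIT2 in neurons against radial glia (A7, 2.08-fold lower), ROBO1 (A8, 2.13-fold) and SLIT3 (A10, 2.12-fold) in choroid plexus against hem and SLIT3 in Cajal-Retzius against neurons (A12, 2.12-fold lower). Depth limits ROBO3 and ROBO4 most, whose counts were 1303 and 62 in cells and 870 and 5 in nuclei.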
